A study of Homo sapiens with 12 samples.

Results

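The SWI/SNF chromatin remodelers were followed through 10 of their subunit genes, SMARCA4, SMARCA2, SMARCB1, SMARCC1, SMARCC2, ARID1A, ARID1B, ARID2, PBRM1 and BRD7, in RNA-Seq counts of prostate cancer (PC) cells in which MUC1-C was silenced or overexpressed. The genes were taken by symbol, and all 10 were found among the 28008 genes listed for the silencing experiment and among the 25435 genes listed for the overexpression experiment. MUC1-C is the C-terminal, membrane-spanning subunit of the MUC1 mucin. Each of the 4 groups held 3 libraries. LNCaP is an androgen-dependent PC line, and LNCaP-ER cells were derived from it by continuous exposure to the antiandrogen drug enzalutamide. All 6 LNCaP-ER libraries came from cells carrying a doxycycline (DOX)-inducible MUC1 shRNA in the pLKO-tet-puro vector, and they differed in treatment, which was DMSO vehicle in one group and 7 days of DOX at 500 ng/mL in the other. In the overexpression experiment, LNCaP/MUC1-C OE cells, into which MUC1-C had been introduced in a CMV-promoter vector, were set against LNCaP cells. The controls of that experiment are called wild-type by the sample labels and vector by the column headers, so whether they carried an empty vector is not settled here, and the labels of the OE cells carry an sh prefix that the study's text does not use for them. Cultures were grown in triplicate, and nothing in the labels says whether these were independent passages, so p-values measure the spread between these libraries, which may be technical.

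SWI/SNF complexes use the energy of ATP to slide or evict nucleosomes and thereby open promoters and enhancers. Each BAF or PBAF complex holds 1 of the mutually exclusive ATPases BRG1 (SMARCA4) or BRM (SMARCA2) and a core that includes SMARCB1 and the SMARCC1/SMARCC2 scaffold. Accessory subunits set its type: ARID1A or ARID1B define BAF, whereas ARID2, PBRM1 and BRD7 define PBAF. Subunits of both complexes are recurrently altered in human cancers.

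The promoters of the genes with the largest measured changes are shown here for reference, and their part in these changes was not tested. PBRM1 had the largest decrease among the 10 genes in the silencing experiment, and SMARCA4 and ARID1A had the largest increases in the overexpression experiment. Each line gives the 250 bases before the annotated start in RefSeq (GRCh38.p14), read 5′ to 3′ on the gene's own strand, and capitals mark the E-box CACGTG, the word bound by MYC and related factors.
PBRM1 (chr3:52685914-52686163, minus strand): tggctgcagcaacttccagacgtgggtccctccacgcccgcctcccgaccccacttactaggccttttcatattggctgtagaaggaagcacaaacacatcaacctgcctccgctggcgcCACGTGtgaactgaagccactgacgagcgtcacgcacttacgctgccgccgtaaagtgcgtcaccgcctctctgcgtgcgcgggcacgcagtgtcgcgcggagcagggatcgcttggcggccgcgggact
SMARCA4 (chr19:10960780-10961029, plus strand): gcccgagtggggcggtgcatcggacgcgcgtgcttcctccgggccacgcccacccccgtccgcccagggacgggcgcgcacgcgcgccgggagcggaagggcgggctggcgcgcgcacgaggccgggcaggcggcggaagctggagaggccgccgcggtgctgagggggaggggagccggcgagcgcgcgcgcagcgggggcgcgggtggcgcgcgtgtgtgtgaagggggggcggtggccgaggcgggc
ARID1A (chr1:26695765-26696014, plus strand): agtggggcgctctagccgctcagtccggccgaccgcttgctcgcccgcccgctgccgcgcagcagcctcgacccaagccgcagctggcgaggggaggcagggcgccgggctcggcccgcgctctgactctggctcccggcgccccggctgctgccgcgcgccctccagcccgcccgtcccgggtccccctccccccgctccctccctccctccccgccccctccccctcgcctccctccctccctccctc

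RefSeq windows running from 250 bases before to 50 bases after a start were at hand for 7 of the 10 genes, 13 windows in all; ARID2, SMARCC1 and SMARCC2 had none. On both strands, CACGTG occurred in 1 of the 13 windows, that of PBRM1 shown above, where it begins 130 bases before the start, and in 7.26% of all 35116 windows. The E2F-type words TTCCCGC and TTGGCGC occurred in 1 window, that of BRD7, 24 bases before the start, and in 9.23% of all windows. The windows of the SMARCA4 and ARID1A starts shown held neither word. Over the full 300 bases, G and C made up 81.3% of the SMARCA4 window, 78.0% of the ARID1A window and 65.3% of the PBRM1 window, against a median of 58.7% over all windows, and a second annotated start of SMARCA4 and of PBRM1 had 57.0% and 82.3%. A matching word is a description of the sequence and not evidence of binding.

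On the GRCh38.p14 annotation SMARCA4 spans chr19:10961030-11062273, SMARCA2 chr9:2015347-2193620, SMARCB1 chr22:23786966-23838009, SMARCC1 chr3:47585269-47781893 and SMARCC2 chr12:56162359-56189483. ARID1A spans chr1:26696015-26782104, ARID1B chr6:156776026-157210779, ARID2 chr12:45729706-45908037, PBRM1 chr3:52545367-52685913 and BRD7 chr16:50315957-50368988. All 10 overlap at least 1 other annotated gene, among them GNL3 at PBRM1 and MYL6 at SMARCC2, and BRD7 has 7 named pseudogenes. How reads shared with these were assigned is not given in the sources used here. The values of all 10 genes, PBRM1, SMARCC2 and BRD7 included, are uncertain to that degree.

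Total counts ranged from 28045894 to 45807989 in the silencing experiment and from 13806856 to 19208944 in the overexpression experiment, and the 10 genes held 642 to 11947 counts in every library, so counting error was small for each of them. MUC1 was counted 30, 25 and 31 times in LNCaP and 9168, 9959 and 12622 times in LNCaP/MUC1-C OE libraries. In the silencing experiment its counts were 26, 10 and 13 with vehicle, against 3, 42 and 8 in replicates 1, 2 and 3 labelled DOX. In its MUC1 counts, which are few, the library labelled DOX replicate 2 therefore goes against its label, with more than any vehicle library. MUC1 had a log2 fold change of 0.12 with all libraries and -1.83 without that one, and neither passed the test (edgeR adjusted p = 0.935 and 0.0617). In the same library 11.2% of the listed genes had no count, against 27.95% to 38.1% in the other 5, so each result below is also given without it where that matters. Of 7 luminal prostate markers, all were above 1 CPM in every LNCaP-ER library, whereas KLK2 and KLK3 were at 0 in all 3 LNCaP/MUC1-C OE libraries and TMPRSS2 was at 0, 0 and 1 count. The summed level of the luminal markers was 2344 to 2490 CPM with vehicle and 3435 to 3863 CPM in the libraries labelled DOX. By that sum the library labelled DOX replicate 2, at 3435 CPM, lay on the side of its label, above all vehicle libraries. In the overexpression experiment the sum was 336 to 345 CPM in LNCaP and 63.2 to 70.7 CPM in LNCaP/MUC1-C OE cells. The 6 neuroendocrine markers summed to 0.521 to 0.915 CPM with vehicle and 1.49, 7.27 and 1.18 CPM in replicates 1, 2 and 3 labelled DOX, so the high value is that of replicate 2 alone, and to 102 to 109 CPM in LNCaP and 97.5 to 114 CPM in LNCaP/MUC1-C OE cells. The 6 stromal markers summed to 9.84 to 16.9 CPM with vehicle and 7.20 to 16.8 CPM in the libraries labelled DOX, and to 57.2 to 62.7 CPM in LNCaP and 39.2 to 43.4 CPM in LNCaP/MUC1-C OE cells. The sums with overexpression hide opposite calls by edgeR, where 33.2% of all genes were higher and 34.1% lower. NCAM1 (log2 fold change 0.23) and SYP (0.36) were higher, whereas CHGA (-0.86), CHGB (-2.37) and INSM1 (-0.97) were lower. Of the stromal markers COL3A1 (2.21) was higher, and COL1A1 (-0.38), LUM (-1.74) and PDGFRB (-1.74) were lower. The part of these differences in the results below was not tested.

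In the MUC1-C silencing experiment, 4 of the 10 genes were lower in the libraries labelled DOX than with vehicle, and PBRM1, a PBAF-defining gene, had the largest decrease. PBRM1 fell to 0.557 and ARID2 to 0.684 of their vehicle levels, ARID1B to 0.754 and SMARCC2 to 0.811, on TMM-normalized counts scaled to library size (CPM). On that scale the estimates for both ATPases lay within 2.05% of their vehicle levels. Their SEs of 0.15 (SMARCA4) and 0.09 (SMARCA2) in log2 units are larger than that, so an unchanged level was not shown. No member passed the test as higher with edgeR's quasi-likelihood test at an adjusted p under 0.05, and none did at an unadjusted p under 0.05 or with DESeq2. Over all 14683 genes tested, 27.3% passed, 12.8% as higher and 14.5% as lower, which is the background for the 4 of 10 genes that were lower. The median log2 fold change was -0.25 over the 10 genes and -0.02 over all genes. Together the 10 genes held 0.154% to 0.162% of all counts with vehicle and 0.124% to 0.132% in the libraries labelled DOX, whereas their summed TPM overlapped (133 to 181 and 159 to 211). The groups did not overlap for 5 of the 10 genes, all lower, against 44.3% of all genes in either direction. Without the library labelled DOX replicate 2, 4 members were again lower, against 17.3% of all genes lower in that fit, with ARID1B (log2 fold change -0.38) then ahead of ARID2 (-0.32). The count was 2 without vehicle replicate 2, vehicle replicate 3 or DOX replicate 3, where 8.22%, 7.61% and 7.77% of all genes were lower. Of the 3 PBAF-defining genes, PBRM1 and ARID2 were lower and BRD7 did not pass.

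The size of these decreases, and for ARID1B and SMARCC2 also the direction, depends on the scale. The deposited TPM values of these libraries are taken up to a large part by small structured RNAs, with RN7SK alone at 35.2% to 37.7% of TPM with vehicle and 24.6% to 31.4% in the libraries labelled DOX. Between the groups the median of all genes moved by 0.45 on the log2(TPM + 1) scale. On this scale 8 of the 10 genes had values above 0, with SMARCA4 called higher and none of the 10 called lower by limma. PBRM1 (-0.27) and ARID2 (-0.03) stayed below 0. Relative to the median of all genes on the TPM scale, 8 of 10 were again lower, with PBRM1 at -0.72, ARID2 at -0.48 and ARID1B at -0.32. Changes in this experiment are therefore given relative to the bulk of genes, as TMM sets them. RNA content per cell was not measured, and in bulk libraries fewer cells of a type and less RNA per cell cannot be told apart.

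In the MUC1-C overexpression experiment, 7 of the 10 genes were higher in LNCaP/MUC1-C OE than in LNCaP cells, 1 was lower and 2 did not pass the test. The largest increases were those of the ATPase SMARCA4 and of the BAF-defining ARID genes: relative to LNCaP, SMARCA4 rose by 76.2%, ARID1A by 50.04% and ARID1B by 38.1%, whereas PBRM1 and BRD7 did not pass and SMARCA2 fell to 0.857 times. This comparison moved most of the transcriptome, with 67.3% of the 13836 genes tested passing, 33.2% as higher and 34.1% as lower, so the share of 8 called in 10 is near the background, while 7 of 10 were higher. Here the median log2 fold change was 0.25 over the 10 genes and -0.0092 over all genes, and the 10 genes together held 0.180% to 0.182% of all counts in LNCaP and 0.204% to 0.210% in LNCaP/MUC1-C OE cells. Groups did not overlap for 8 of the 10 genes, all higher, against 70.3% of all genes in either direction. With scaling by library size only, which moved the median of all genes by -0.16, 5 were higher and 2, SMARCA2 and PBRM1, lower, and over all genes the calls went from 4600 higher of 9312 to 3050 higher of 9438.

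**Figure D1:**
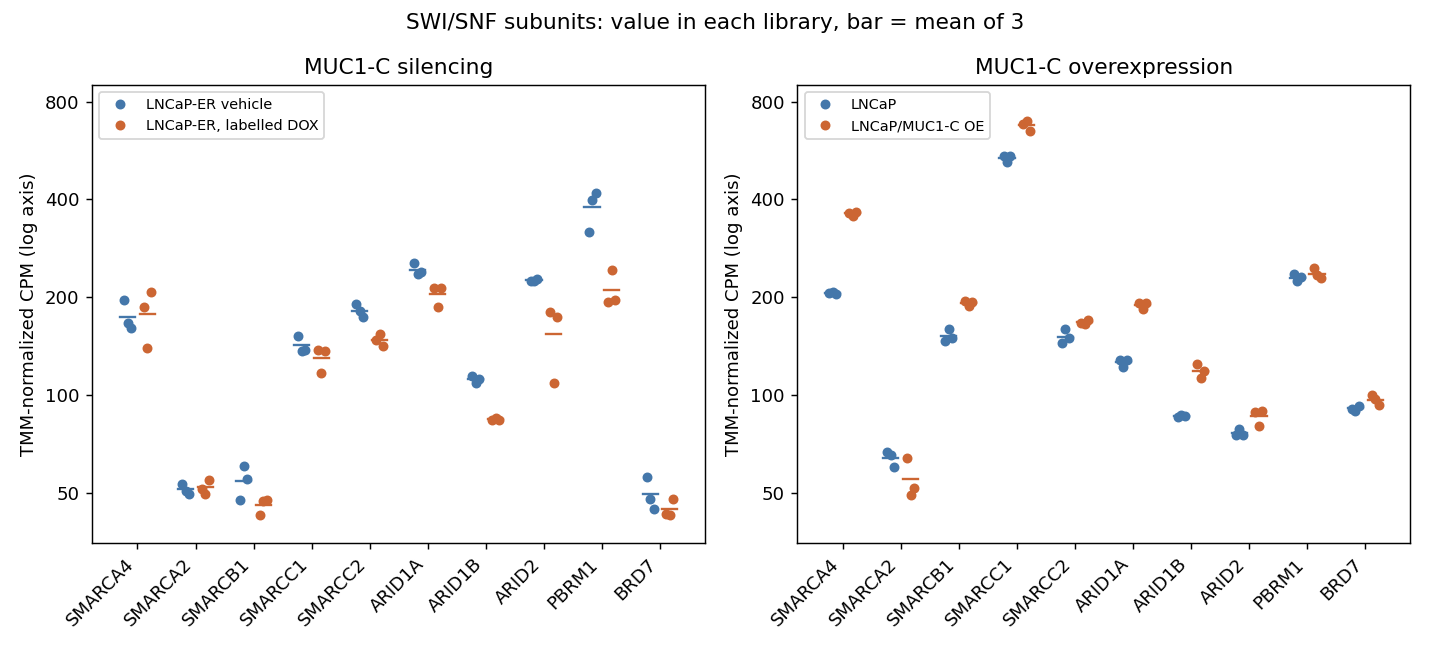
TMM-normalized CPM (log axis) of the 10 SWI/SNF genes in each library of the silencing experiment (left) and the overexpression experiment (right), with points for libraries and bars for the mean of 3. On this scale PBRM1 separates from 318 to 420 CPM with vehicle to 193 to 243 CPM in the libraries labelled DOX, and SMARCA4 from 204 to 207 CPM in LNCaP to 356 to 366 CPM in LNCaP/MUC1-C OE cells; on the TPM scale the PBRM1 groups overlap.

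**Figure D2:**
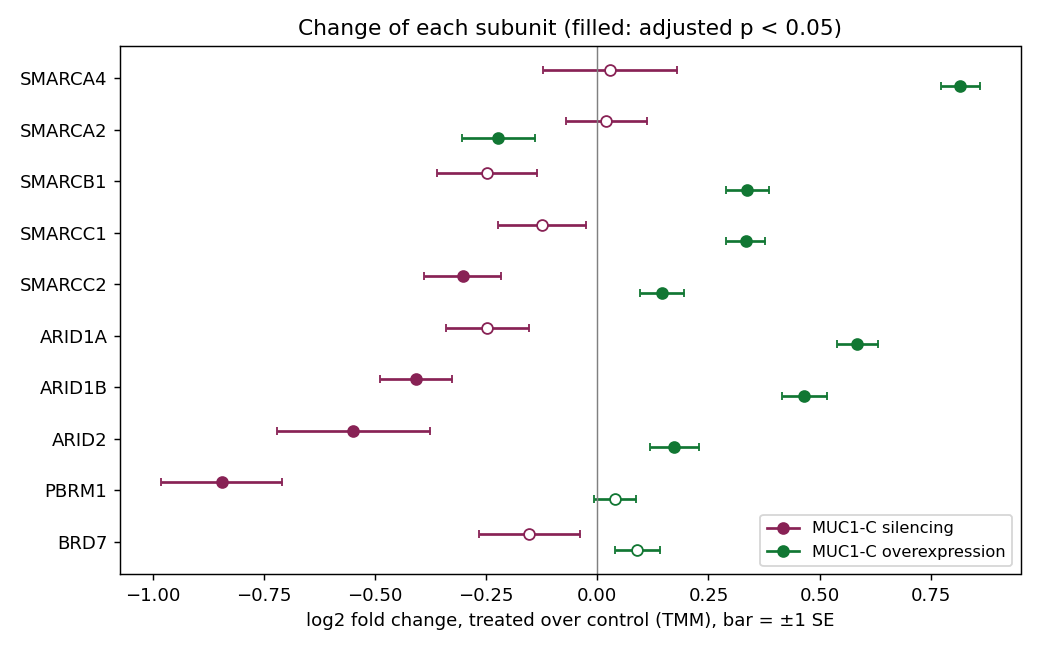
Log2 fold change of each gene, treated over control, with ±1 SE, from edgeR's quasi-likelihood fit of each experiment (filled points: adjusted p under 0.05). After silencing 8 of 10 values lie below 0, which turns to 2 of 10 on the unadjusted TPM scale, and after overexpression 9 of 10 lie above 0, with PBRM1, SMARCC2 and BRD7 turning below 0 when counts are scaled by library size only.

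Among the ATPases, SMARCA4 (BRG1) was measured at 196, 166 and 160.0 CPM with vehicle and at 187, 139 and 208 CPM in the libraries labelled DOX. The groups overlapped completely, with the library labelled DOX replicate 2 lowest and DOX replicate 3 highest, and the log2 fold change was 0.03 (SE 0.15, adjusted p = 0.905 by edgeR). Leaving out 1 library at a time moved it between -0.10 and 0.21, and on the TPM scale it was 0.55, or 0.10 above the median of all genes. With overexpression, SMARCA4 went from 205, 207 and 204 CPM in LNCaP to 363, 356 and 366 CPM in LNCaP/MUC1-C OE cells. The groups were far apart and each was tight, giving a log2 fold change of 0.82 (SE 0.04, edgeR adjusted p = 2.61e-11).

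SMARCA2 (BRM), the alternative ATPase, did not pass after silencing, at 53.2, 50.5 and 49.6 CPM with vehicle and 51.3, 49.4 and 54.8 CPM in the libraries labelled DOX (log2 fold change 0.02, SE 0.09, edgeR adjusted p = 0.888). In the overexpression experiment it was 66.6, 65.4 and 60.04 CPM in LNCaP and 63.7, 49.1 and 51.7 CPM in LNCaP/MUC1-C OE cells. SMARCA2 was the gene of the 10 that was called lower there, with a log2 fold change of -0.22 (SE 0.08, edgeR adjusted p = 0.0274), yet the groups overlapped because OE replicate 1 lay within the LNCaP range. That call was lost without LNCaP replicate 1 (adjusted p = 0.0950), LNCaP replicate 2 (0.0812), OE replicate 2 (0.142) or OE replicate 3 (0.144), and without OE replicate 1 the log2 fold change was -0.34.

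The ratio of the ATPases within a library needs no scaling between libraries. On the log2 scale of counts, SMARCA4 over SMARCA2 was 1.62, 1.66 and 1.76 in LNCaP and 2.51, 2.86 and 2.82 in LNCaP/MUC1-C OE libraries. All 3 OE values were above all LNCaP values, the mean difference was 1.05 (SE 0.12), or a 2.07-fold shift toward BRG1, and the exact two-sided permutation test gave p = 0.10, the smallest that 3 against 3 libraries allow (0.16 after adjustment over the 8 ratios tested). Per-length values here used gene lengths from the silencing experiment, whose annotation was not the same, so they rest on an assumption. On that basis SMARCA4 made up 79.1% ± 0.813 (SD, n = 3) of the sum of both ATPases in LNCaP and 88.6% ± 1.38 (SD, n = 3) in LNCaP/MUC1-C OE cells. After silencing the ratio was 1.88, 1.72 and 1.69 with vehicle and 1.86, 1.49 and 1.92 in the libraries labelled DOX. These groups overlapped, with a difference of -0.01 (SE 0.15, exact permutation p = 1) that was 0.05 when vehicle replicate 1 was left out and 0.13 when DOX replicate 2 was.

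Of the core subunits, SMARCB1 (INI1), the subunit lost in rhabdoid tumors, was 47.4, 60.5 and 54.9 CPM with vehicle and 42.6, 46.95 and 47.4 CPM in the libraries labelled DOX. Vehicle replicate 1 overlapped the other group, and the decrease of 0.25 on the log2 scale (SE 0.11) missed the threshold (edgeR adjusted p = 0.134), although it passed without vehicle replicate 1 (log2 fold change -0.34, adjusted p = 0.0486). In the overexpression experiment SMARCB1 was 146, 159 and 150 CPM in LNCaP and 195, 187 and 193 CPM in LNCaP/MUC1-C OE cells, without overlap (log2 fold change 0.34, SE 0.05, edgeR adjusted p = 7.90e-06).

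SMARCC1 (BAF155), a scaffold subunit on which the core assembles, was 152, 136 and 138 CPM with vehicle and 137, 117 and 137 CPM in the libraries labelled DOX, which overlapped (log2 fold change -0.12, SE 0.10, edgeR adjusted p = 0.380; -0.02 without DOX replicate 2). It rose from 544, 521 and 543 CPM in LNCaP to 682, 697 and 648 CPM in LNCaP/MUC1-C OE cells (log2 fold change 0.33, SE 0.04, edgeR adjusted p = 3.27e-06). SMARCC2 (BAF170), its paralog, was 190, 181 and 174 CPM with vehicle and 147, 154 and 141 CPM in the libraries labelled DOX. Every vehicle library lay above every library labelled DOX, and the log2 fold change of -0.30 (SE 0.09, edgeR adjusted p = 0.0297) was 0.24 on the TPM scale and -0.21 relative to the median of all genes there. The SMARCC2 call was lost without vehicle replicate 1 (adjusted p = 0.0575), vehicle replicate 2 (0.0965), vehicle replicate 3 (0.0765), DOX replicate 1 (0.0740) or DOX replicate 3 (0.114), and it held without the library labelled DOX replicate 2 (0.0233).

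With overexpression SMARCC2 rose from 145, 159 and 149 CPM in LNCaP to 166, 165 and 170 CPM in LNCaP/MUC1-C OE cells (log2 fold change 0.15, SE 0.05, edgeR adjusted p = 0.0142). That call was lost without LNCaP replicate 1 (adjusted p = 0.0904) or LNCaP replicate 3 (0.0601), and the value was -0.01 when scaled by library size only. The log2 ratio of SMARCC1 over SMARCC2 was 1.91, 1.71 and 1.86 in LNCaP and 2.04, 2.08 and 1.93 in LNCaP/MUC1-C OE libraries, higher by 0.19 (SE 0.07, exact permutation p = 0.10, 0.16 adjusted) with no overlap. After silencing it was -0.33, -0.41 and -0.33 with vehicle and -0.10, -0.40 and -0.05 in the libraries labelled DOX, which overlapped (difference 0.18, SE 0.11, exact permutation p = 0.30). The overlap came from DOX replicate 2, and the difference was 0.28 without that library and 0.11 without DOX replicate 3.

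ARID1A (BAF250A), the DNA-binding subunit of BAF that is often mutated in carcinomas, was 254, 235 and 239 CPM with vehicle and 213, 186 and 214 CPM in the libraries labelled DOX. The groups did not overlap, but the log2 fold change of -0.25 (SE 0.09) did not pass (edgeR adjusted p = 0.0789), and it was 0.29 on the TPM scale, or -0.16 relative to the median of all genes. Without the library labelled DOX replicate 2 the log2 fold change was -0.15 (edgeR adjusted p = 0.189). In the overexpression experiment ARID1A was 128, 122 and 128 CPM in LNCaP and 192, 183 and 192 CPM in LNCaP/MUC1-C OE cells. That was a clear separation, with a log2 fold change of 0.59 (SE 0.05, edgeR adjusted p = 6.13e-09).

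ARID1B (BAF250B), the alternative to ARID1A in BAF, had a small spread in both groups of the silencing experiment. It was 114, 109 and 112 CPM with vehicle and 83.8, 84.7 and 83.7 CPM in the libraries labelled DOX, with a log2 fold change of -0.41 (SE 0.08, edgeR adjusted p = 0.00722) that was 0.13 on the TPM scale and -0.32 relative to the median of all genes there. The call held without each library in turn, with adjusted p between 0.00756 and 0.0413. With overexpression ARID1B rose from 85.3, 86.4 and 85.8 CPM in LNCaP to 124, 112 and 119 CPM in LNCaP/MUC1-C OE cells (log2 fold change 0.47, SE 0.05, edgeR adjusted p = 3.51e-07). On TMM-normalized counts ARID1B, like ARID2 and SMARCC2, passed the test in both experiments with opposite signs. Over all genes, 27.3% passed after silencing and 67.3% with overexpression. The share of all genes that passed in both with opposite signs was not counted. The ARID2 and SMARCC2 calls after silencing were lost in several fits with a library left out. Their overexpression calls were lost with scaling by library size only.

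The log2 ratio of ARID1A over ARID1B was 1.16, 1.11 and 1.10 with vehicle and 1.35, 1.14 and 1.35 in the libraries labelled DOX. DOX replicate 2 lay within the vehicle range, and the difference of 0.16 (SE 0.07) gave an exact permutation p of 0.20. In the overexpression experiment the ratio was 0.58, 0.50 and 0.57 in LNCaP and 0.62, 0.71 and 0.69 in LNCaP/MUC1-C OE libraries, higher by 0.12 (SE 0.04, exact permutation p = 0.10, 0.16 adjusted).

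PBRM1 (BAF180, polybromo-1), the PBAF subunit with multiple acetyl-lysine-binding bromodomains, had the largest change of the 10 genes after silencing. It was 318, 398 and 420 CPM with vehicle and 193, 243 and 196 CPM in the libraries labelled DOX. The lowest vehicle library, replicate 1, was still above the highest library labelled DOX, replicate 2, and the log2 fold change was -0.85 (SE 0.14, edgeR adjusted p = 0.00333). The call held without each library in turn (log2 fold change -0.96 to -0.77), and without the library labelled DOX replicate 2 its adjusted p was 0.00114. On the TPM scale the decrease was 0.27 and did not pass (limma adjusted p = 0.284). With overexpression PBRM1 was 235, 223 and 231 CPM in LNCaP and 247, 233 and 228 CPM in LNCaP/MUC1-C OE cells, overlapping, with a log2 fold change of 0.04 (SE 0.05, edgeR adjusted p = 0.471). When scaled by library size only it was called lower, at -0.11 (adjusted p = 0.0371), while the median of all genes moved by -0.16.

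ARID2 (BAF200), the ARID subunit of PBAF, was 223, 224 and 228 CPM with vehicle and 180, 108 and 174 CPM in the libraries labelled DOX. Vehicle was tight, the library labelled DOX replicate 2 was far lower than the other two, and the log2 fold change of -0.55 (SE 0.17, edgeR adjusted p = 0.0429) was -0.32 without that library, where it still passed (adjusted p = 0.0159). On the TPM scale ARID2 was at -0.03 and did not pass (limma adjusted p = 0.924). The call on counts was lost without vehicle replicate 1 (adjusted p = 0.0892), vehicle replicate 2 (0.110), vehicle replicate 3 (0.124) or DOX replicate 3 (0.0696). With overexpression ARID2 was 75.1, 78.2 and 75.3 CPM in LNCaP and 88.3, 80.1 and 89.1 CPM in LNCaP/MUC1-C OE cells (log2 fold change 0.17, SE 0.06, edgeR adjusted p = 0.0107), and its value was 0.02 when scaled by library size only (adjusted p = 0.769).

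BRD7, the bromodomain subunit of PBAF, was 56.0, 47.7 and 44.4 CPM with vehicle and 42.9, 42.6 and 47.6 CPM in the libraries labelled DOX, with overlap (log2 fold change -0.15, SE 0.11, edgeR adjusted p = 0.346), and the value was -0.09 without the library labelled DOX replicate 2. In the overexpression experiment it was 90.3, 89.3 and 92.7 CPM in LNCaP and 99.98, 97.1 and 92.8 CPM in LNCaP/MUC1-C OE cells. These ranges just missed each other, and the log2 fold change of 0.09 (SE 0.05) did not pass (edgeR adjusted p = 0.125), though it did without OE replicate 3 (0.13, adjusted p = 0.0496).

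The log2 ratio of ARID2 over ARID1A, which sets the ARID of PBAF against ARID1A but not against ARID1B, had lower values in both treated groups. A ratio of ARID2 over ARID1B was not tested. After silencing without DOX replicate 2, the log2 fold change by edgeR was -0.32 for ARID2 and -0.38 for ARID1B. With overexpression it was 0.17 for ARID2 and 0.47 for ARID1B. With vehicle it was -0.19, -0.07 and -0.07, and in the libraries labelled DOX it was -0.25, -0.78 and -0.30, a difference of -0.34 (SE 0.17, exact permutation p = 0.10, 0.16 adjusted) that was -0.17 without DOX replicate 2. In LNCaP it was -0.77, -0.64 and -0.76, and in LNCaP/MUC1-C OE libraries -1.12, -1.20 and -1.10, a difference of -0.41 (SE 0.05, exact permutation p = 0.10, 0.16 adjusted). None of the 8 ratio tests could pass the test with 3 libraries a group. In 5 of them the groups did not overlap: ARID2 over ARID1A after silencing and every ratio with overexpression. Over other gene pairs this share was not counted. Of single genes, 44.3% after silencing and 70.3% with overexpression did not overlap.

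**Figure D3:**
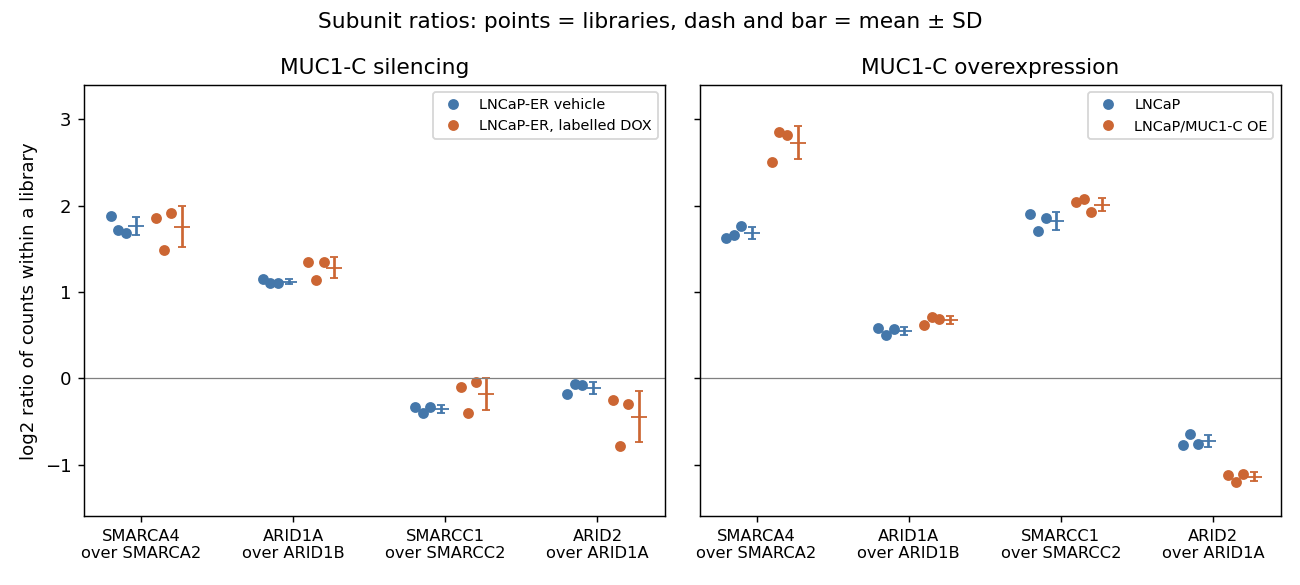
Log2 ratio of the counts of subunits within a library, for 4 pairs in the silencing (left) and overexpression (right) experiments, with points for libraries and a dash with its bar for mean ± SD. SMARCA4 over SMARCA2 moves from 1.68 in LNCaP to 2.73 in LNCaP/MUC1-C OE cells on average. Its mean is 1.76 in both LNCaP-ER groups, whose values overlap.

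Levels of different genes were compared per length. In LNCaP-ER cells with vehicle, mean TPM was highest for PBRM1 (28.2 ± 1.07, SD, n = 3), followed by SMARCC2 (22.4 ± 4.30), SMARCA4 (18.9 ± 4.88), ARID1A (17.6 ± 3.24), ARID2 (15.9 ± 2.17), SMARCC1 (15.7 ± 3.18) and BRD7 (14.8 ± 3.98), and lowest for SMARCB1 (9.82 ± 1.07), ARID1B (6.995 ± 1.13) and SMARCA2 (4.67 ± 0.854). From SMARCC2 to BRD7 each neighbour's range overlapped the next, so their order is not resolved, whereas PBRM1 at the top and SMARCB1, ARID1B and SMARCA2 at the bottom were each separated from the gene above or below. In the libraries labelled DOX the order was SMARCA4, SMARCC2, PBRM1, ARID1A, SMARCC1, BRD7, ARID2, SMARCB1, ARID1B and SMARCA2, with all neighbours overlapping except SMARCB1 and ARID1B. The TPM range of PBRM1 was thus apart from that of SMARCC2 with vehicle and overlapped those of SMARCA4 and SMARCC2 in the libraries labelled DOX.

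Because the library-wide share of RN7SK enters every TPM value, each gene was also expressed as a share of the summed per-length signal of the 10 genes in its own library. PBRM1 took 18.5% ± 2.80 (SD, n = 3) with vehicle and 12.9% ± 2.43 in the libraries labelled DOX, and ARID2 took 10.3% ± 0.201 and 8.66% ± 1.87. The ranges of PBRM1 overlapped by a small margin, because vehicle replicate 1 was at 15.3% and DOX replicate 2 at 15.7%. Those of ARID2 missed each other by a smaller margin, with vehicle replicate 1 at 10.08% and DOX replicate 1 at 10.04%. DOX replicate 3 was at 9.42% and DOX replicate 2 far lower, at 6.53%. SMARCA2 (3.004% ± 0.0806 to 3.79% ± 0.0791) and SMARCC1 (10.1% ± 0.506 to 11.5% ± 0.490) took a larger share without overlap. A share falls or rises with the other 9 genes too, so these values describe composition and not the change of a gene.

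The same lengths, carried over to the overexpression table on the assumption that its annotation was alike, gave the composition in LNCaP cells. SMARCC1 held 29.8% ± 0.725 (SD, n = 3) of the signal there, SMARCB1 14.05% ± 0.619 and BRD7 13.7% ± 0.241, while PBRM1 held 8.81% ± 0.227 and ARID2 2.73% ± 0.0624. The tables were counted separately, so the levels of LNCaP and LNCaP-ER cells stand side by side and were not compared. In LNCaP/MUC1-C OE cells SMARCA4 took a larger share (11.2% ± 0.0987 to 15.7% ± 0.354) and passed SMARCB1 and BRD7 in the order of shares, and larger shares were also taken by ARID1A (4.62% ± 0.125 to 5.53% ± 0.152) and by ARID1B (2.73% ± 0.0163 to 3.003% ± 0.127). The shares of PBRM1 (8.81% to 7.22%), BRD7 (13.7% to 11.6%), SMARCC2 (9.41% to 8.30%), ARID2 (2.73% to 2.45%) and SMARCA2 (2.96% to 2.02%) were smaller, all without overlap. Those of SMARCB1 and SMARCC1 overlapped between the groups. A share can fall because other genes rise. On TMM-normalized counts, ARID2 and SMARCC2 were called higher (log2 fold change 0.17 and 0.15 by edgeR) and SMARCA2 lower (-0.22). PBRM1 (0.04) and BRD7 (0.09) did not pass, so no PBAF-defining gene was called lower.

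**Figure D4:**
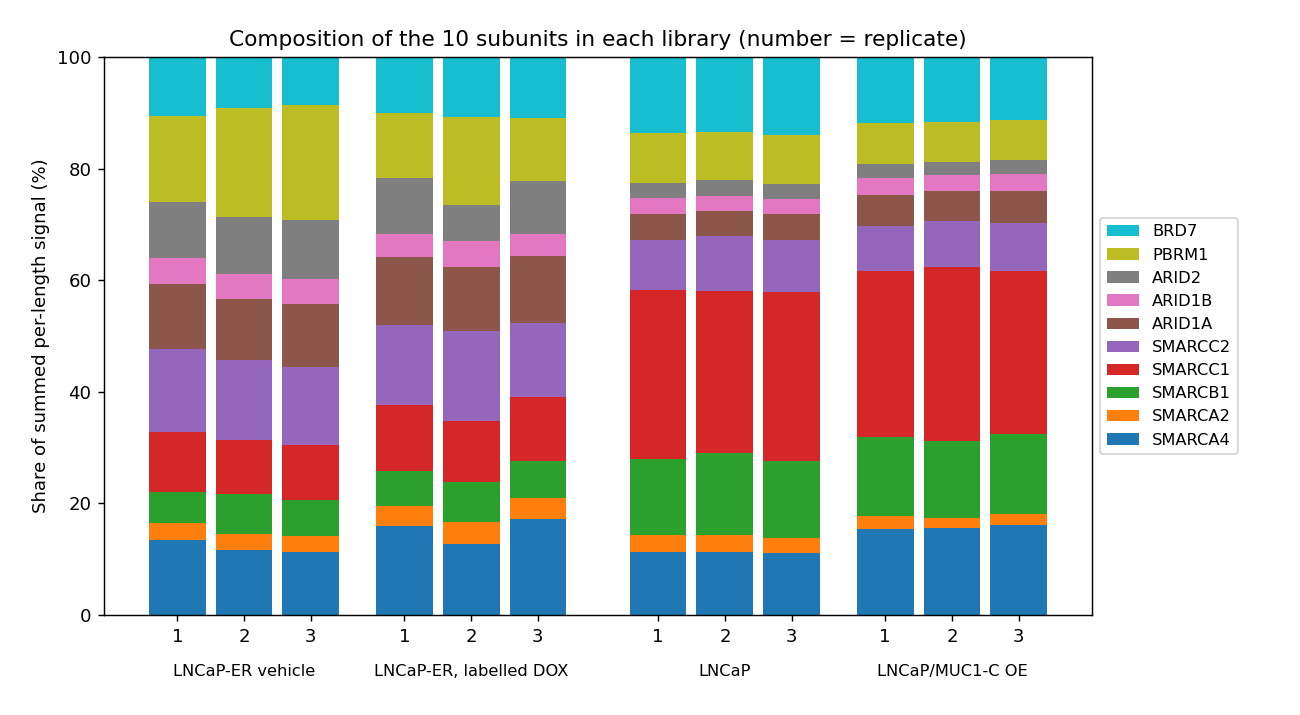
Stacked share (%) of each of the 10 genes in their summed per-length signal, 1 bar per library, with lengths from counts over TPM in the silencing tables. For LNCaP and LNCaP/MUC1-C OE libraries these lengths are an assumption. SMARCA4 widens from 11.2% in LNCaP to 15.7% in LNCaP/MUC1-C OE cells, and PBRM1 narrows from 18.5% with vehicle to 12.9% in the libraries labelled DOX.

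The other subunits of BAF, PBAF and the non-canonical BAF complex, 19 genes of which 18 passed the filter on low counts in each experiment, were tested in the same fits. The neuronal subunit ACTL6B did not pass the filter. After silencing, 3 of the 18 were lower and none higher by edgeR or DESeq2 (at an unadjusted p under 0.05, 1 was higher), with a median log2 fold change of -0.05. That share is close to the 14.5% of all genes that were lower. BICRAL, a subunit of non-canonical BAF, fell from 107, 130 and 131 CPM with vehicle to 66.7, 74.5 and 68.8 CPM in the libraries labelled DOX (log2 fold change -0.81, SE 0.11, edgeR adjusted p = 0.00153). ACTL6A (BAF53A), the actin-like subunit of proliferating cells, fell by 0.50 (SE 0.10, edgeR adjusted p = 0.00651) and PHF10 (BAF45A), a PBAF subunit with PHD fingers, by 0.47 (SE 0.11, adjusted p = 0.0119), both on the log2 scale. On the TPM scale BICRAL was at -0.22, ACTL6A at 0.05 and PHF10 at 0.08, or -0.67, -0.40 and -0.37 relative to the median of all genes, and on that scale limma called 4 of these subunits higher and none lower. Without the library labelled DOX replicate 2, these 3 were again lower and 2 were higher, SMARCD2 (log2 fold change 0.28, adjusted p = 0.0239) and BICRA (0.47, adjusted p = 0.0144), named after their values were seen.

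With overexpression, 6 of the 18 other subunits were higher and 2 lower, and their median was 0.04 on the log2 scale. Over all genes 33.2% were higher and 34.1% lower, so the share of higher calls is at the background. PHF10 rose from 86.2, 87.8 and 86.95 CPM in LNCaP to 111, 119 and 115 CPM in LNCaP/MUC1-C OE cells (log2 fold change 0.40, SE 0.05, edgeR adjusted p = 1.22e-06). SMARCD2 (BAF60B) and DPF2 (BAF45D) rose by 0.24 and 0.23 (SE 0.05 for each, adjusted p = 0.000413 and 0.000672), values that were 0.08 and 0.08 and no longer called with scaling by library size only. SMARCD3 (BAF60C), the paralog of SMARCD2, fell from 55.6, 50.2 and 50.2 CPM to 38.3, 38.3 and 35.9 CPM (log2 fold change -0.47, SE 0.07, edgeR adjusted p = 6.31e-06). SMARCE1 (BAF57), an HMG-box core subunit, was lower by 0.13 (log2 fold change -0.13, SE 0.05, adjusted p = 0.0185), a call lost without LNCaP replicate 1 (adjusted p = 0.0512), LNCaP replicate 2 (0.0965), OE replicate 2 (0.0676) or OE replicate 3 (0.0814). With scaling by library size only, 2 of the other subunits were higher and 7 lower.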

How the data were processed

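RNA-Seq libraries were prepared with a stranded mRNA kit, per the labels. The authors aligned reads with STAR to GRCh38 (submitters' processing notes, which also name DESeq2); the counting tool, its strand setting and the annotation are not given in the sources used here. Counts per gene were deposited as whole numbers without normalization, 1 column per library, and TPM values over 25545 genes were deposited for the silencing experiment by the authors. The overexpression table also has 12 columns from other cell lines, which were not used. Groups and replicate numbers came from the labels.

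Each experiment was fitted on its own over all genes with edgeR 4.0.16 (R 4.3.3; TMM, default low-count filter, robust quasi-likelihood F test, Benjamini-Hochberg over all genes tested). An adjusted p below 0.05 made a gene higher or lower, and SE is the log2 fold change divided by the square root of F. Ratios used counts plus 0.5 and an exact permutation test of 3 against 3 libraries (scipy 1.17.1), adjusted over 8. Relative gene lengths were counts over TPM, which varied between libraries by a median of 0.0239%. Replicate pairs differed by more than sampling noise (chi-square divided by its degrees of freedom, 2.27 to 69.1), so each library counted once. Intervals and SDs cover the spread between libraries. The scripts were tested on simulated data. Alternatives were DESeq2 1.42.0, other size factors and filters, a log2 fold change limit of 1, a replicate-number block, each library left out, and limma 3.58.1 on log2(TPM + 1) or log2(TPM + 0.1). Named genes were MUC1, the 10 members and, of the other subunits, the 3 with the smallest p per direction and experiment. The members and lists were chosen with earlier results of these data known. DU-145 and H660 cells are not analysed here, and 1 luminal marker is not reported here.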

Additional observations from a re-analysis of the deposited data

How the results depend on the processing

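Of 442 values of single genes under the alternatives, 340 kept their direction and their side of the threshold, 60 kept the direction and lost the call, 4 gained a call and 38 changed sign, 26 of these on a TPM scale. Among the 10 members after silencing, the 4 calls became 2 with no filter, 0 at an absolute log2 fold change of 1 or more, 1 with limma on log2(TPM + 1) and 1 on log2(TPM + 0.1), both increases, 0 on log2(TPM + 1) without a filter, and 1 with RN7SK, RN7SL1 and RN7SL2 removed before rescaling, an alternative chosen after seeing the data, where it was the decrease of PBRM1. With 1 library left out the count was 2 to 4. For the other subunits the 3 decreases became 0 calls at that fold limit, 4 increases and 0 decreases on log2(TPM + 1) and on log2(TPM + 0.1), 1 increase on log2(TPM + 1) without a filter, 1 decrease with the 3 RNAs removed, and 3 to 5 calls with 1 library left out. With overexpression no member and no other subunit passed the fold limit (0 and 0 of the 8 and 8 calls).

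Signs changed on log2(TPM + 1), with or without its filter, and on log2(TPM + 0.1) for ARID1A (0.29 and 0.31), ARID1B (0.13 and 0.15), SMARCB1 (0.29 and 0.31), SMARCC1 (0.41 and 0.43), SMARCC2 (0.24 and 0.25), BRD7 (0.38 and 0.41), PHF10 (0.081 and 0.085) and ACTL6A (0.052 and 0.053), and with the 3 RNAs removed for SMARCC1 (0.057) and BRD7 (0.035). The median of all genes moved by 0.45 on log2(TPM + 1), 0.52 on log2(TPM + 0.1) and 0.14 with the 3 RNAs removed. Leaving out 1 library changed the sign of SMARCA2 (-0.027 to 0.088), SMARCA4 (-0.10 to 0.21), MUC1 (-1.83 to 0.62) and the ratio of SMARCA4 over SMARCA2 (-0.086 to 0.13), all after silencing. With overexpression, scaling by library size only gave -0.11 for PBRM1, -0.0083 for SMARCC2 and -0.064 for BRD7. Over all genes, calls after silencing were 1875 higher of 4006, 2430 of 4077 by library size only and 4998 of 5252 on log2(TPM + 1).

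The replicate numbers did not pair the samples: deviations of same-numbered libraries correlated at 0.087, -0.0028 and -0.074 after silencing and at -0.029, -0.15 and -0.037 with overexpression. With the replicate block 4 members were called after silencing and 8 with overexpression, as without it, and MUC1 after silencing was at -0.62.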

Other observations

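ATPases of the other remodeler families were read for reference. After silencing, 4 of the 14 ISWI, CHD and INO80-family ATPases were lower and 10 did not pass, against 14.5% of all genes lower. Their log2 fold changes had a median of -0.21, close to the -0.25 of the 10 SWI/SNF genes. The 4 were CHD9 (log2 fold change -0.60, SE 0.10, edgeR adjusted p = 0.00348), INO80 (-0.51, SE 0.09, 0.00406), CHD1 (-0.50, SE 0.14, 0.0317), which is deleted in part of prostate cancers, and SRCAP (-0.33, SE 0.08, 0.0189), which deposits the histone variant H2A.Z. Without the library labelled DOX replicate 2, a fit chosen after seeing the data, 4 were lower and 1, CHD7, higher (log2 fold change 0.37, edgeR adjusted p = 0.0195). With overexpression the median was 0.07, with 7 higher and 4 lower, against 33.2% and 34.1% of all genes. CHD2 rose by 0.49 (SE 0.06, adjusted p = 4.88e-07) and EP400 by 0.35 (SE 0.05, 7.61e-06), while SRCAP fell by 0.46 (SE 0.05, 1.47e-07) and the ISWI ATPase SMARCA1 by 0.44 (SE 0.04, 1.06e-07), all by edgeR on the log2 scale. SRCAP was lower in both experiments. These genes were chosen for naming after their values were seen.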
